A study of Mus musculus with 2 samples.

Results

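The 10 miRNA genes of the Rtl1 region, Mir337, Mir540, Mir665, Mir431, Mir433, Mir127, Mir434, Mir3071, Mir136 and Mir370, were taken by their GENCODE M21 gene symbols from the 2202 annotated mouse miRNA genes that were counted. The choice used annotation and position, not the measured levels, although earlier results of these data were known when it was made. The tissue came from aged B6CASTF1/J mice, a hybrid of an inbred laboratory strain and a wild-derived one, at 18 to 20 months, and was the left cerebral cortex. Small RNA of under 30 nt was sequenced in 2 libraries of 1 group, which the labels number as biological replicates 1 and 2 and trace to a single donor record. The tissue records differ, but nothing else shows that they came from separate animals. P-values between the libraries concern only the difference of these libraries, which may be technical, and they also depend on the number of reads. Their labels disagree on the sex of the mice, which was not used. No other tissue, age, strain or treatment was measured, so the comparisons lie between loci and between the libraries.

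The Dlk1-Dio3 domain of mouse chromosome 12 is imprinted. Its protein-coding genes, among them the retrotransposon-derived Rtl1, are expressed from the paternal chromosome, and its long noncoding RNAs (Meg3, Rian and Mirg), snoRNAs and miRNAs from the maternal one. Several of the miRNAs are transcribed from the strand opposite to Rtl1 and pair perfectly with its mRNA, and in the mouse such antisense miRNAs are known to direct cleavage of the paternal Rtl1 transcript, whose protein is needed in the fetal vessels of the placenta. In the adult brain the domain's miRNAs are known mainly from neurons. The deposited counts do not separate the parental alleles, and no mRNA was measured here.

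By the position of their hairpins (mm10) the genes fell into 3 groups. Mir337 (ENSMUSG00000065526.4, chr12:109585789-109585885), Mir540 (ENSMUSG00000072900.2, chr12:109586080-109586146) and Mir665 (ENSMUSG00000076313.1, chr12:109586314-109586407) lay on the plus strand beyond the 3′ end of Rtl1, 194 and 167 bases apart. Mir431 (ENSMUSG00000070080.1, chr12:109590447-109590537), Mir433 (ENSMUSG00000070072.1, chr12:109591715-109591838), Mir127 (ENSMUSG00000070076.2, chr12:109592846-109592915), Mir434 (ENSMUSG00000070133.1, chr12:109594506-109594599) and Mir136 (ENSMUSG00000104858.1, chr12:109595327-109595388) lay on the plus strand inside the coding sequence of Rtl1, which is read from the minus strand (coding part chr12:109590172-109595403, in a single exon). Mir3071 (ENSMUSG00000070129.2, chr12:109595318-109595397) also lay inside that coding sequence but on the minus strand, the strand of Rtl1 itself, although the set was described as plus-strand loci. It contains the whole Mir136 hairpin on the other strand, an overlap of 62 bases. Mir370 (ENSMUSG00000065433.1, chr12:109618258-109618336) stood apart, 22869 bases beyond Mir136, on the plus strand in an intron of Rian.

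RefSeq (GRCm38.p6) held the hairpins of all 10 genes at the same coordinates, with 20 mature sequences of 20 to 26 bases. The arms shown first are those of Mir127 and Mir433, which had the highest levels, each with its perfectly complementary site in the coding sequence of the Rtl1 transcript. Capitals mark the seed, bases 2 to 8 of a miRNA, and its match in the Rtl1 site. Both lie at chr12:109592888-109592909 for miR-127-3p and chr12:109591781-109591802 for miR-433-3p, the miRNA on the plus strand and the site on the minus strand.
mmu-miR-127-3p: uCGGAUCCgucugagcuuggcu
Rtl1 site of miR-127-3p: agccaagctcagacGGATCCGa
mmu-miR-127-5p: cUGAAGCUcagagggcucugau
mmu-miR-433-3p: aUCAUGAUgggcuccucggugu
Rtl1 site of miR-433-3p: acaccgaggagcccATCATGAt
mmu-miR-433-5p: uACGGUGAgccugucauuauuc

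The reverse complement of 10 of the 20 mature sequences, both arms of Mir431, Mir433, Mir127, Mir434 and Mir136, was found whole in the Rtl1 coding sequence. The mature sequences of Mir337, Mir540, Mir665 and Mir370 had no such match there. The arms of Mir3071 were found in the Rtl1 transcript in the same sense. They pair with the arms of Mir136, which are shown because the strand of a read decides which of these 2 genes it is counted for. A run of 20 bases of miR-136-5p is complementary to miR-3071-3p, and a run of 19 bases of miR-136-3p to miR-3071-5p.
mmu-miR-136-5p: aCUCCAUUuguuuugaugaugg
mmu-miR-3071-3p: aUCAUCAAaacaaauggagucc
mmu-miR-136-3p: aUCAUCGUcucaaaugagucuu
mmu-miR-3071-5p: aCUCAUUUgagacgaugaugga

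No seed was shared among the 20 mature sequences, so the 10 genes form no seed family although they lie together. For 18 of the 20 no other mature sequence among the 1738 in the RefSeq mouse table had the same seed. The exceptions are shown with their partners. miR-540-3p shares its seed with miR-6915-5p, of chromosome 10, and miR-370-5p with miR-1193-3p, of the distal miRNA cluster of the same Dlk1-Dio3 domain.
mmu-miR-540-3p: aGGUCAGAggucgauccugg
mmu-miR-6915-5p: aGGUCAGAgcagauggagguucgu
mmu-miR-370-5p: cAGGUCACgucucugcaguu
mmu-miR-1193-3p: uAGGUCACccguuuuacuauc
Both partner genes had low levels in counts per 1000000 sense miRNA reads (CPM), Mir6915 with 4.62 and 8.12 CPM and Mir1193 with 13.9 and 24.6 CPM in replicates 1 and 2. The tables count a hairpin as a whole, so the share of each arm is not known.

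The libraries held 8041772 reads in replicate 1 and 12239366 in replicate 2, of which 2381663 and 4436398 lay on the annotated strand of a miRNA gene. Unmapped reads made up 30.8% of replicate 1 and 14.6% of replicate 2, and reads that map to several places, which stand under no gene, 35.6% and 44.8%. The CPM of a gene were computed on the sense miRNA reads, without the reads that map to several places. Shares and ranks therefore hold among the reads counted, not among all miRNA, and miRNAs with several gene copies may be undercounted. The limit that a count of 0 allows, set at 3 counts, was 1.26 CPM for replicate 1 and 0.676 CPM for replicate 2. Intervals are exact (95%), Poisson for levels and binomial for shares. Like the limits they hold for counting error only, because PCR copies are not separate molecules. A list of 11 loci of neuronal miRNAs summed to 105213 and 90488 CPM in replicates 1 and 2. Reads in both libraries were found for 10 of these loci, and no locus of the list was without reads altogether. The sums were spread unevenly over the list. Mir132 held the largest part, 69646 and 43349 CPM, and Mir212 was also higher in replicate 1 (919 and 879 CPM). Mir128-1 (14354 and 19064 CPM), Mir330 (7688 and 11152 CPM) and Mir383 (6310 and 7012 CPM) were higher in replicate 2. So were Mir128-2, Mir138-1 and Mir138-2. The Mir124a loci of the list each had under 10 reads in total. The 5 loci listed for blood summed to 264 and 128 CPM. Mir142 held the most, 149.9 and 49.4 CPM, and Mir451a of red cells stood at 49.97 and 22.5 CPM. Mir486 (27.3 and 27.5 CPM), Mir144 (20.6 and 17.4 CPM) and Mir223 (16.4 and 11.5 CPM) differed less. The 2 mural cell loci summed to 10855 and 5719 CPM. Choroid plexus and epithelium (5 loci) reached 997 and 922 CPM, oligodendrocytes (3 loci) 4684 and 3502 CPM, and endothelium (Mir126a) 17007 and 18138 CPM. Of the oligodendrocyte loci only Mir338 was higher in replicate 1 (3079 and 1778 CPM). Mir219a-2 (1600 and 1718 CPM) and Mir219a-1 (5.88 and 6.09 CPM) were slightly higher in replicate 2. The 4 muscle loci summed to 14.7 and 19.8 CPM, with Mir1a-1 at 0, and Mir122 of liver stood at 58.4 and 75.96 CPM. In whole tissue, fewer cells of a type and less RNA per cell cannot be told apart.

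Together the 10 genes had 110115 reads in replicate 1 and 257260 in replicate 2. That was 46235 CPM (45962 to 46508) and 57988 CPM (57765 to 58213), or 4.62% and 5.80% of all sense miRNA reads, with an average of 52111 ± 8311 CPM (SD, n = 2). At least 10 reads in each library were reached by 9 of the 10, and a mean of 1000 CPM or more by 5. Within this sum the levels were very uneven, as the map of levels along the region shows.

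**Figure D1:**
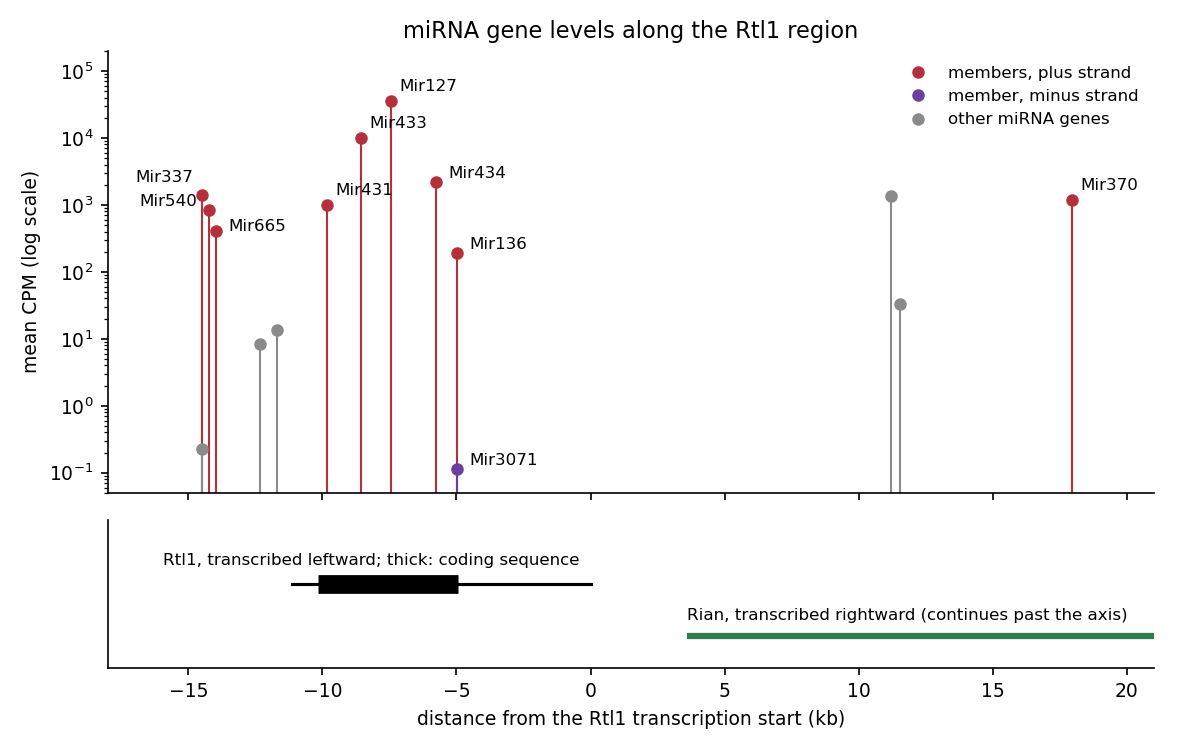
Mean level of each miRNA gene with a read (vertical axis, mean CPM of 2 libraries, log scale) against its distance from the transcription start of Rtl1 (horizontal axis, kb), with members in red (plus strand) or purple (minus strand), other miRNA genes in grey, and Rtl1 and Rian drawn below. The highest points, Mir127 at 35059 CPM and Mir433 at 9847 CPM, lie over the Rtl1 coding sequence, and Mir3071, on the strand of Rtl1, is the lowest member at 0.113 CPM.

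Mir127, whose miRNA is fully complementary to Rtl1 and whose loss in the mouse is known to affect the placenta, carried most of the reads. It had 66899 reads, or 28089 CPM (27877 to 28303), in replicate 1 and 186454 reads, or 42028 CPM (41838 to 42219), in replicate 2. Its average was 35059 ± 9856 CPM (SD, n = 2). Among the 2202 genes, counted without reads that map to several places, it ranked 9 in replicate 1 and 6 in replicate 2. Its share of the reads of the 10 genes was 60.7% in replicate 1 and 72.5% in replicate 2. Without it the other 9 genes summed to 18145 CPM and 15960 CPM.

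Of the other loci antisense to Rtl1, Mir433 came next. It had 26042 reads (10934 CPM) in replicate 1 and 38864 reads (8760 CPM) in replicate 2, a mean of 9847 ± 1537 CPM (SD, n = 2), and ranked 17 and 23. Mir434 had 5713 reads (2399 CPM) and 8608 reads (1940 CPM), a mean of 2170 ± 324 CPM. Both stood higher in replicate 1, whereas Mir127, which lies between them on the same strand, stood higher in replicate 2. Mir431, known in the mouse from muscle progenitors, had 2247 reads (943.5 CPM) in replicate 1 and 4622 reads (1042 CPM) in replicate 2, a mean of 993 ± 69.6 CPM. Its 2 values were the closest, relative to their mean, of the antisense loci.

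Mir136 was the lowest of the antisense loci and the member that differed most between the libraries. It had 684 reads (287 CPM, interval 266 to 309) in replicate 1 and 433 reads (97.6 CPM, 88.6 to 107) in replicate 2, averaging 192 ± 134 CPM (SD, n = 2). Mir3071 had 0 sense reads in replicate 1 and 1 in replicate 2. Its level lay at or under what a count of 0 allows in both libraries, so it was not detectable at this depth. The opposite-strand column showed 684 and 433 reads at Mir3071, the same numbers as the sense reads of Mir136, since a read on the plus strand of this overlap is sense for one gene and opposite for the other. Of the stranded reads at Mir3071, 100% (99.5 to 100) in replicate 1 and 99.8% (98.7 to 99.99) in replicate 2 were thus on the strand of Mir136.

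The same held for Mir337, which overlaps the minus-strand gene Mir3544 over 61 bases. Mir337 had 2479 and 8035 sense reads in replicates 1 and 2, with 0 and 2 on the opposite strand. The 8 members other than Mir3071 and Mir337 together had a single opposite-strand read, at Mir136 in replicate 2. Leaving out Mir3071, opposite-strand reads were 0 of the stranded reads at the members in replicate 1 (exact binomial interval up to 0.00335%) and 0.00117% in replicate 2 (up to 0.00341%). Which stranded column is sense was itself read from the values, so these shares show only that nearly all stranded reads at the members other than Mir3071 stand in 1 column.

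In the group beyond the 3′ end of Rtl1, both libraries had the order Mir337, Mir540, Mir665, which is also their order along the chromosome. Mir337 stood at 1041 and 1811 CPM in replicates 1 and 2, a mean of 1426 ± 545 CPM (SD, n = 2). Mir540 stood at 773 and 907 CPM (mean 839.9 ± 95.2 CPM) and Mir665 at 369.5 and 446 CPM (mean 408 ± 53.8 CPM). All 3 were higher in replicate 2. The hairpin of Mir665 has 2 words of 20 bases in common with the pseudogene Gm5554, so reads of that stretch may be missing from its count. Neither mature arm of Mir665 was found whole in another transcript, on either strand. Mir370, the locus in the Rian intron, stood at 1399 and 956 CPM, a mean of 1177 ± 313 CPM, and was higher in replicate 1.

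**Figure D2:**
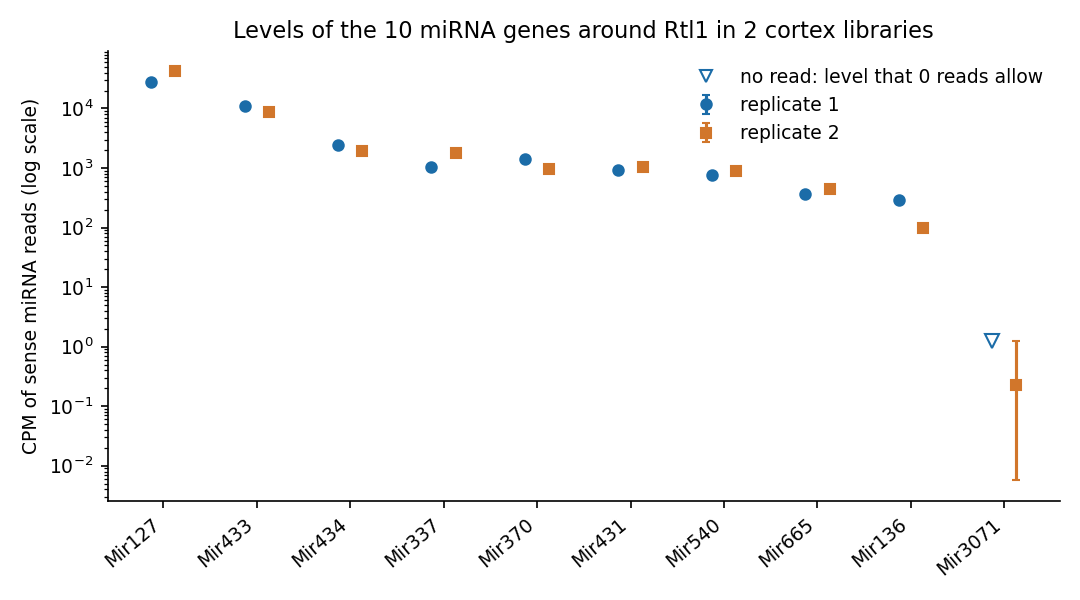
Level of each of the 10 genes (CPM of sense miRNA reads, log scale) in replicate 1 (circles) and replicate 2 (squares), ordered by mean; bars are 95% exact Poisson intervals and the open triangle is the level that 0 reads allow. The points run from Mir127, at 28089 and 42028 CPM, down to Mir136, at 287 and 97.6 CPM, and Mir3071 lies far below with 1 read in all.

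In the order of mean levels, Mir127 was followed by Mir433, Mir434, Mir337, Mir370, Mir431, Mir540, Mir665, Mir136 and Mir3071. The ranges of the 2 libraries did not overlap for 7 of the 9 pairs of neighbours in this order. They overlapped between Mir337 and Mir370 and between Mir370 and Mir431, so the order of those 3 genes was not resolved beyond the spread between libraries. Mir127 was 3.56 times Mir433 in mean and Mir433 was 4.54 times Mir434.

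Other miRNA genes lie between the members. Mir341, also in Rian upstream of Mir370, reached 1151 and 1549 CPM in replicates 1 and 2, a level within the range of the members. Mir1188 beside it had 31.1 and 34.04 CPM. Mir3070a, with 12 and 52 reads, and Mir3070b, with 30 and 63, lie between Mir665 and Mir431 and were far lower than either.

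Set against the rest of the domain, the 10 genes held 44.6% of the sense miRNA reads of the 66 miRNA genes annotated in the Dlk1-Dio3 domain (Mir1906-1 to Mir3072, chr12:109544541-109747960) in replicate 1 (44.4 to 44.8) and 53.2% in replicate 2 (53.06 to 53.3), averaging 48.9% ± 6.10 (SD, n = 2). The distal cluster from Mir379 to Mir410, with 38 plus-strand genes, held 47.8% and 39.2%. The members thus held fewer reads than the distal cluster in replicate 1 and more in replicate 2. The intervals of the libraries, which cover counting error, do not overlap, and these shares were given no other test. The 4 distal genes of highest mean level, Mir411 (7724 ± 2527 CPM), Mir382 (6550 ± 1217 CPM), Mir487b (5926 ± 1143 CPM) and Mir379 (5259 ± 1595 CPM), all lay below Mir433 in mean. They were all higher in replicate 1.

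Mir127 alone took 27.1% of the domain's reads in replicate 1 and 38.6% in replicate 2. With Mir127 left out of both the members and the domain, the other 9 members held 24.0% and 23.8%, a mean of 23.9% ± 0.109 (SD, n = 2). These 2 shares lay much closer together than those with Mir127, a split chosen after the values had been seen. They do not show that each of the other members was steady. In CPM, Mir433, Mir434, Mir136 and Mir370 were higher in replicate 1, and Mir337, Mir540, Mir665 and Mir431 in replicate 2. Mir127 had 2.57 reads for each Mir433 read in replicate 1 (interval 2.53 to 2.61) and 4.80 in replicate 2 (4.74 to 4.85), and their hairpins lie 1007 bases apart on the same strand.

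**Figure D3:**
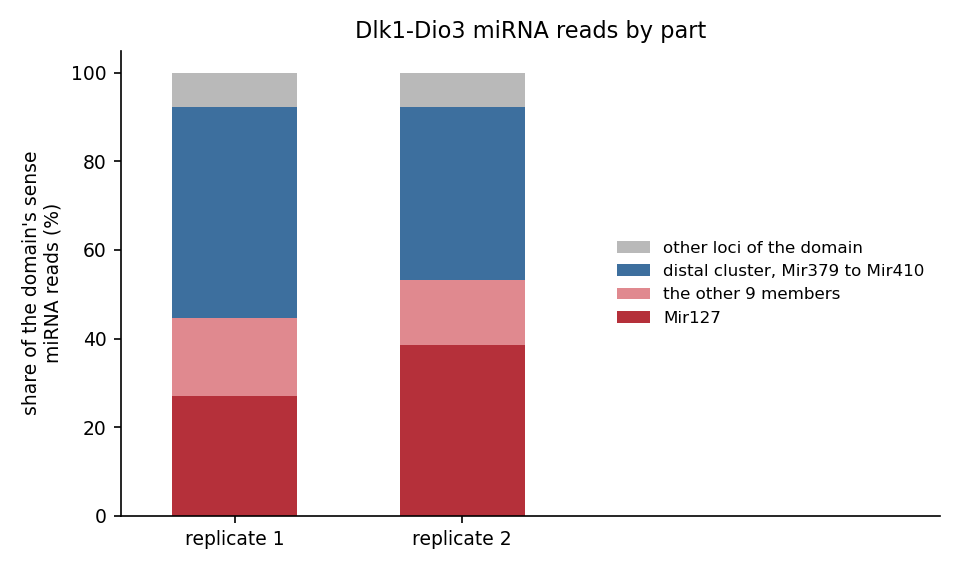
Share of the sense miRNA reads of the 66 miRNA genes in the window taken as the Dlk1-Dio3 domain (%, vertical axis) in each library, by part. Mir127 takes 27.1% in replicate 1 and 38.6% in replicate 2, and the distal cluster 47.8% and 39.2%.

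The libraries were compared gene by gene with a two-sided exact binomial test given TMM effective library sizes, over the 472 miRNA genes with at least 10 reads in total and with Benjamini-Hochberg adjustment over all of them. This test allows for counting noise alone, and it passed 52.1% of all genes tested, 24.6% of them higher in replicate 1 and 27.5% higher in replicate 2 as shares of the genes tested. All 9 members with enough reads passed, 4 higher in replicate 1 (Mir433, Mir434, Mir136 and Mir370) and 5 higher in replicate 2 (Mir337, Mir540, Mir665, Mir431 and Mir127). In the distal cluster 26 of 34 tested genes passed, 12 higher in replicate 1 and 14 higher in replicate 2. The members' median absolute log2 ratio of 0.347 lay below the 0.449 of all genes tested, and their median signed log2 ratio, replicate 1 over replicate 2, was -0.115 against -0.075. The lowest tested member, Mir136, had 684 and 433 reads, whereas the genes tested reach down to 10 reads in total. With few reads, counting noise widens ratios and fewer genes pass. No comparison at like read number was made, so neither the medians nor the share passing set the members apart.

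**Figure D4:**
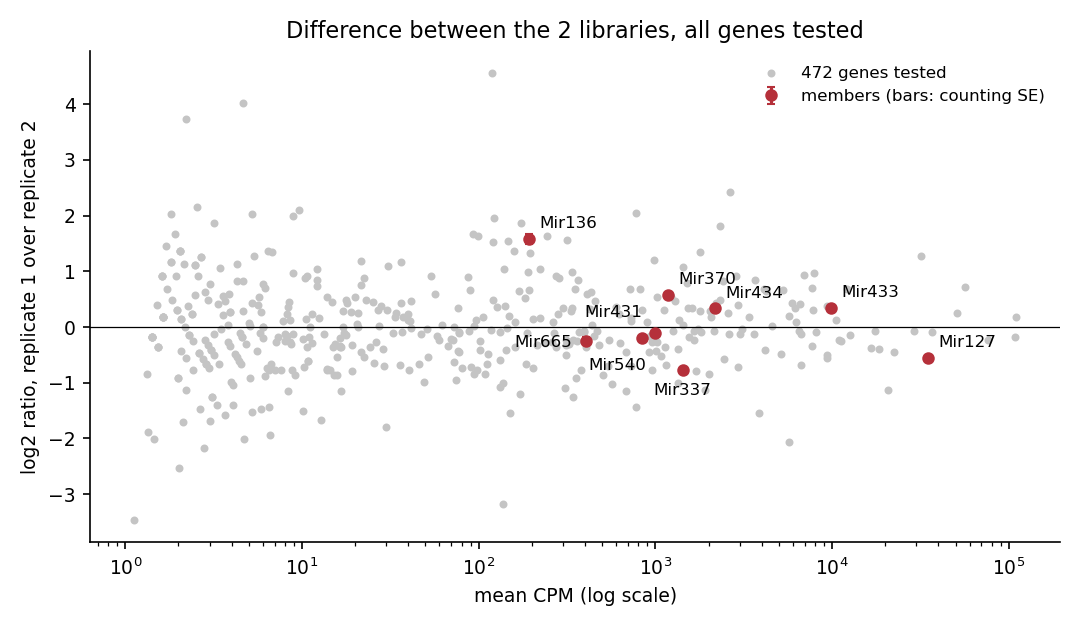
Log2 ratio of replicate 1 over replicate 2 (vertical axis) against mean CPM (log scale) for the 472 genes tested (grey) and the 9 members among them (red, with counting SE). Mir136 stands out upward at 1.58, and Mir337 is the lowest member at -0.77.

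Mir136 had the largest difference, a log2 ratio of 1.58 ± 0.09 (counting SE; exact binomial test, adjusted p = 5.10e-73), at the 93.4th percentile of absolute ratios over the genes tested, and the only member past 2-fold, a size that 13.8% of all genes tested reached while passing. Mir337 followed at -0.77 ± 0.03 (adjusted p = 1.93e-129) and Mir370 at 0.58 ± 0.03 (adjusted p = 1.84e-64), both in the exact binomial test. Mir127 had a log2 ratio of -0.55 ± 0.01, with an adjusted p too small to be represented, Mir433 one of 0.35 ± 0.01 and Mir434 one of 0.33 ± 0.02. The smallest were Mir665 at -0.24 ± 0.06, Mir540 at -0.20 ± 0.04 and Mir431 at -0.12 ± 0.04 (exact binomial test, adjusted p = 0.00423). Mir431 did not pass with RLE factors or DESeq2 size factors (log2 ratio -0.04, exact binomial test, adjusted p = 0.380).

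When the spread between these libraries was allowed for, with edgeR's exact test and a common biological coefficient of variation of 0.342 estimated over 367 genes, none of the 9 members passed, against 0.424% of all genes tested. Mir136 was the only member with an unadjusted p under 0.05 in that test (edgeR, adjusted p = 0.708), where 6.14% of all genes had one. The dispersion comes from the same 2 libraries, so that test gives no replicate evidence for any gene.

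The difference between the libraries was also set beside the GC content of the hairpin, a relation examined after the values had been seen. Mir136 has the lowest GC content of the members (40.3%) and the highest ratio, and Mir540 the highest GC content (61.2%) with a log2 ratio of -0.20. Across the 9 members Pearson's r was -0.65 and Spearman's rho -0.28, and without Mir136 they were -0.17 and 0.02 over 8, so the relation among the members rests on Mir136. Across 49 of the 51 tested loci of the domain r was -0.52 and rho -0.47, across 32 of 34 in the distal cluster -0.50 and -0.45, and across 401 of all 472 genes tested -0.30 and -0.34. These are descriptions across genes, which share both libraries and are not independent replicates. The shares of unmapped and multimapping reads and the summed levels of the blood and mural cell loci, given above, also differed between the libraries, and their part in these ratios was not tested.

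**Figure D5:**
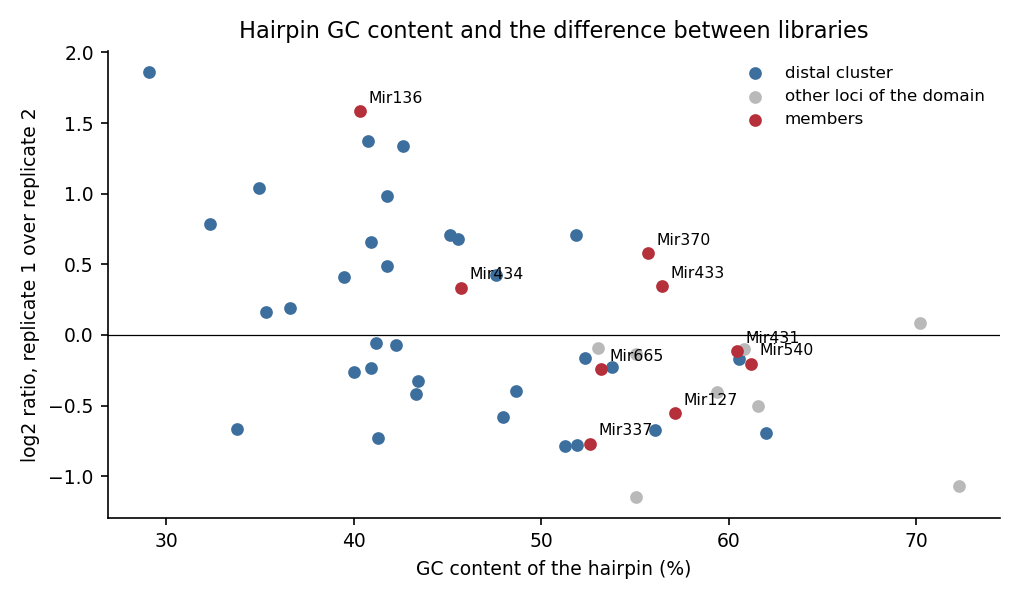
Log2 ratio of replicate 1 over replicate 2 (vertical axis) against hairpin GC content (%, horizontal axis) for 49 tested loci of the Dlk1-Dio3 domain: members (red), distal cluster (blue) and other loci (grey). Mir136 lies at 40.3% GC and a log2 ratio of 1.58, apart from the other 8 members, over which Spearman's rho is 0.02.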

How the data were processed

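The authors deposited, for each library, whole-number read counts per miRNA gene, not normalized, headed by 4 summary lines (no feature, ambiguous, unmapped, several places) that stayed out of library sizes and tests. The deposited notes name mm10 as the build and GENCODE M21 as the annotation. Which aligner, counter and trimming were used is not given in the sources used here. The gene-strand column was used, identified as sense from the values. CPM used the sum of that column as the total. Because a read here stands for a mature miRNA, no length scaling was made. TMM factors (0.9905 and 1.01, edgeR 4.0.16 in R 4.3.3) came from genes with at least 10 reads in total. Log2 ratios had 0.5 reads added to each count. DESeq2 1.42.0 gave alternative size factors. Python 3.11.15, scipy 1.17.1, numpy 2.4.6 and pandas 2.3.3 did the rest. The binomial test was checked on simulated counts with counting noise alone, so that check does not cover spread between libraries.

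Words of 20 bases were searched in the annotated transcripts, on both strands. The members, lists and tests were chosen with earlier results of these data known. Named are all members, the 4 leading distal genes, genes overlapping a member and other miRNA genes within the members' span with at least 10 reads in each library. Partners by seed and the GC relation were added after values were seen. With 1 group of 2 libraries no quasi-likelihood test could be made, and no gene was named for a like pattern. Alternatives covered scaling, filters, strand column, dispersion, threshold, single libraries and leaving out Mir127.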

Additional observations from a re-analysis of the deposited data

How the results depend on the processing

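The summed level of the 10 genes was 57988 CPM without replicate 1 and 46235 CPM without replicate 2, and scaled to all reads of the library, a different denominator, it was 17356. Leaving out Mir127 gave a sum of 17053 CPM and a share of the domain's reads of 23.9%, against 48.9% with it; this alternative was chosen after seeing the data. The opposite-strand share at the members fell to 0.000583% when Mir3071 was left out, also chosen after seeing the data. The 9 members other than Mir3071 all passed the exact binomial test with library totals, TMM over all annotated genes, either read minimum or an adjusted p of 0.01. With RLE or DESeq2 factors 8 passed it. In edgeR's exact test 0 passed and 1 had an unadjusted p under 0.05. The dispersion of that test comes from these same 2 libraries, so the difference tested is itself counted as spread. Counting both strands together leaves Mir337, Mir136 and Mir3071 with 0 reads, whose overlaps then stand as ambiguous, and the other 7 all passed the exact binomial test. No member changed direction under any of these. The median log2 ratio of all genes tested was -0.07 with TMM, -0.10 with library totals, -0.17 with TMM over all annotated genes and -0.002 with RLE. No paired analysis was possible because there is 1 group. With 2 libraries from 1 donor record, errors between animals are not known.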
